A study of Mus musculus with 12 samples.

Results

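The lysosomal hydrolases and the proton pump that acidifies the lysosome were followed in a mouse progenitor line carrying mutant CSF3R, mutant CEBPA or both. The genes were chosen by name: every gene whose symbol starts with Atp6v0 or Atp6v1, and a list of 28 lysosomal genes. Pump symbols were counted only where they had a named probe set, which with the list gave 50 genes. Of these, 48 were measured by a named probe set among the 22206 gene probe sets of the array: 22 pump symbols and 26 lysosomal genes. Ctsd and Glb1, from the list, were not analysed here, and neither was the pump gene Atp6v0c, which is not among the 50. Atp6v1fnb entered by its symbol; it is a neighbour of a pump gene, not a known subunit.

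The lysosome breaks down protein, sugar chains and lipid with acid-dependent enzymes. The vacuolar proton pump keeps it acid: its V1 sector, in the cytosol, burns ATP, and its V0 sector, in the membrane, carries the protons. In myeloid cells these enzymes act in phagocytosis, granule formation and antigen processing. The transcription factor TFEB and its relatives TFE3, MITF and TFEC bind E-box motifs in the promoters of many lysosomal genes.

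HoxB8-ER cells are progenitors held at a granulocyte-macrophage stage by an estrogen-dependent HoxB8 protein. All 4 groups were transduced with a pair of retroviral vectors (MSCV-IRES-GFP and MSCV-IRES-mCherry), sorted for both fluorescent proteins, left to recover, and collected 24 hours after estrogen was removed. The groups were cells with empty vectors, cells with CSF3R_T618I, an activated receptor for granulocyte colony-stimulating factor, cells with CEBPA_V314VW, a mutant of a myeloid transcription factor, and cells with both (CSF3R_T618I+CEBPA_V314VW), 3 arrays each. Both mutant genes came from a retroviral vector in 1 cell line that kept its own Csf3r and Cebpa, which limits the groups as a model of a mutated locus. The mean level of 7 progenitor markers was 12.70 to 12.74 over the empty vector arrays, 12.15 to 12.27 with CSF3R_T618I, 12.41 to 12.49 with CEBPA_V314VW and 12.13 to 12.16 with both. Against empty vector, 2 of the 7 fell in each mutant group: Kit and Cd34 with CSF3R_T618I and with both, and Elane and Ms4a3 with CEBPA_V314VW. Of all gene probe sets, 2.63% were lower with CSF3R_T618I, 0.95% with CEBPA_V314VW and 2.3% with both. Levels are log2 RMA values, a normalised array brightness, so a change of 1 is a doubling of signal. Levels of different genes cannot be set against each other.

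A gene is said to have risen or fallen where the adjusted p of limma's moderated test was below 0.05, with the Benjamini-Hochberg adjustment over all 22206 gene probe sets. Array C of the CSF3R_T618I group and array C of the double mutant stood apart. Their background controls were at 5.25 and 5.27, above the range of 4.98 to 5.11 in the other 10 arrays, and their estimated quality weights were the lowest (0.325 and 0.486). Of the 22 pump genes, 7 lay at 4.81 to 5.93 on average, close to those background levels, among them Atp6v0d2, Atp6v0a4 and Atp6v1b1, which are subunit forms known from osteoclasts, kidney and other specialised cells. Little can be read from changes in these genes. The other 15 lay at 7.34 to 10.43.

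The promoter stretches that follow show where the E-box falls in some genes that carry it. Atp6v1a, Ctsl and Lamp1 passed the test in some comparison, Lamp1 only weakly, and Gla and Mcoln1 did not pass in any. Sequences are from RefSeq (GRCm38.p6), on the strand of the gene, 5′ to 3′. Capitals mark the E-box CACGTG, or TCACGTGA, the inner letters of the CLEAR element that TFEB is known to bind.
Atp6v1a, chr16:44139354-44139421, minus strand: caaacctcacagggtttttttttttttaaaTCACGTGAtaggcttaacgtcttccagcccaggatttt
Ctsl, chr13:64370721-64370770, minus strand: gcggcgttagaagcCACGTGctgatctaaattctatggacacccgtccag
Lamp1, chr8:13159070-13159160, plus strand: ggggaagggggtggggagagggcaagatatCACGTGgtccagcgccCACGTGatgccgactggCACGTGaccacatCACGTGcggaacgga
Gla, chrX:134601163-134601255, minus strand: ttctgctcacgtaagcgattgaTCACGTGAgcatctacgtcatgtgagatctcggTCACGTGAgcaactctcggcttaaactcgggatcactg
Mcoln1, chr8:3500418-3500510, plus strand: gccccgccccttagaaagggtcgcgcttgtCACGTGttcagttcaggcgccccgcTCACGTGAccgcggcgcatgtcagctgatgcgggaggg

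Promoters of 38 of the 48 genes were matched, each from 250 bases before to 50 after the start. TCACGTGA stood in 6 of the 38 (15.8%), namely Atp6v0d1, Atp6v0e, Atp6v1a, Ctsa, Gla and Mcoln1. It stood in 1.12% of 27025 genes with a promoter in the same table, and in 1.45% of the 15691 of them measured on the array. CACGTG, which TCACGTGA contains, stood in 10 of 38 (26.3%) against 8.09% of all and 9.26% of the array genes. Both motifs read the same on the 2 strands. TCACGTGA was in 2 of the 11 matched genes that passed a test in any comparison and in 4 of the 27 that did not. The STAT motif TTCNNNGAA was in none of the 38 windows, in 9.55% of all genes and in 9.02% of the array genes. A match in a window is a description of its letters and not a measured binding site.

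The first comparison asks what CSF3R_T618I alone did to the lysosomal programme. Against empty vector, 4 of the 48 genes rose and none fell: the cysteine cathepsins Ctsl, Ctss and Ctsb, which cut protein in the lysosome, and Atp6v1a, the catalytic subunit of the pump. Of all gene probe sets, 3.74% were higher and 2.63% lower by the same test. Passing either way made up 8.33% of the 48 genes and 8.74% of the 14329 gene symbols with a level above background. The share of calls was thus not raised over that of these symbols. Genes called near background here were counted among the symbols above background, such as Atp6v0a4, at 5.42 on average. The shares of symbols above background, here and below, are therefore not shares of clearly expressed genes. Ctsl and Ctss changed more than 2-fold. The count rested on the setting: with arrays weighted by quality 11 of the 48 genes passed. The share of all gene probe sets under that setting is not given here, so the 11 cannot be read against it. Within CSF3R_T618I the weights were 0.862, 3.73 and 0.325 for arrays A, B and C, so array B counted most. The added genes were Atp6v0a1, Atp6v1g1, Ctsz, Lamp1, Lamp2 and Asah1, which rose, and Npc2, which fell.

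Ctsl lay at 6.94, 6.64 and 6.51 in the empty vector arrays. It lay at 8.47, 8.30 and 8.46 with CSF3R_T618I, at 7.38, 7.07 and 6.98 with CEBPA_V314VW, and at 8.78, 8.72 and 8.93 with both. All 6 arrays with CSF3R_T618I were above all 6 without it. The change with CSF3R_T618I alone was 1.71 ± 0.14 (SE, 3.27-fold, limma adjusted p = 4.31e-06), and with both against empty vector it was 2.11 ± 0.14 (4.32-fold, adjusted p = 8.96e-07). Within the CEBPA_V314VW background, adding CSF3R_T618I raised Ctsl by 1.67 ± 0.14 (adjusted p = 5.45e-06). The effect of CSF3R_T618I differed between the backgrounds by -0.04, with a 95% interval of -0.47 to 0.38.

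Ctss, a cathepsin known for antigen processing, followed the same order. Its levels were 5.91, 5.75 and 6.35 with empty vector and 7.69, 7.51 and 7.12 with CSF3R_T618I. They were 6.37, 5.81 and 6.11 with CEBPA_V314VW and 7.85, 7.65 and 7.40 with both. Again the arrays with and without CSF3R_T618I did not overlap. Ctss rose 2.71-fold with CSF3R_T618I alone (1.44 ± 0.20, limma adjusted p = 0.000548) and 3.1-fold with both (1.63 ± 0.20, adjusted p = 2e-04). Without CSF3R_T618I it was close to the background controls, where RMA is known to compress changes.

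Ctsb and Atp6v1a had another shape: each was higher with CSF3R_T618I and lower with CEBPA_V314VW than in empty vector cells. Ctsb lay at 11.14, 11.03 and 10.83 with empty vector, at 11.50, 11.54 and 11.41 with CSF3R_T618I, at 10.47, 10.29 and 10.42 with CEBPA_V314VW, and at 11.01, 11.23 and 11.02 with both. The double mutant thus lay at the empty vector level, between the single mutants. Ctsb rose by 0.49 ± 0.11 with CSF3R_T618I (limma adjusted p = 0.0214) and fell by 0.60 with CEBPA_V314VW (SE 0.11, adjusted p = 0.0121), and the single mutants were 2.13-fold apart (1.09 ± 0.11, adjusted p = 2.59e-05). Both calls against empty vector were lost when certain single arrays were left out (highest adjusted p = 0.0962 and 0.0806), and the difference between the single mutants was not.

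**Figure D1:**
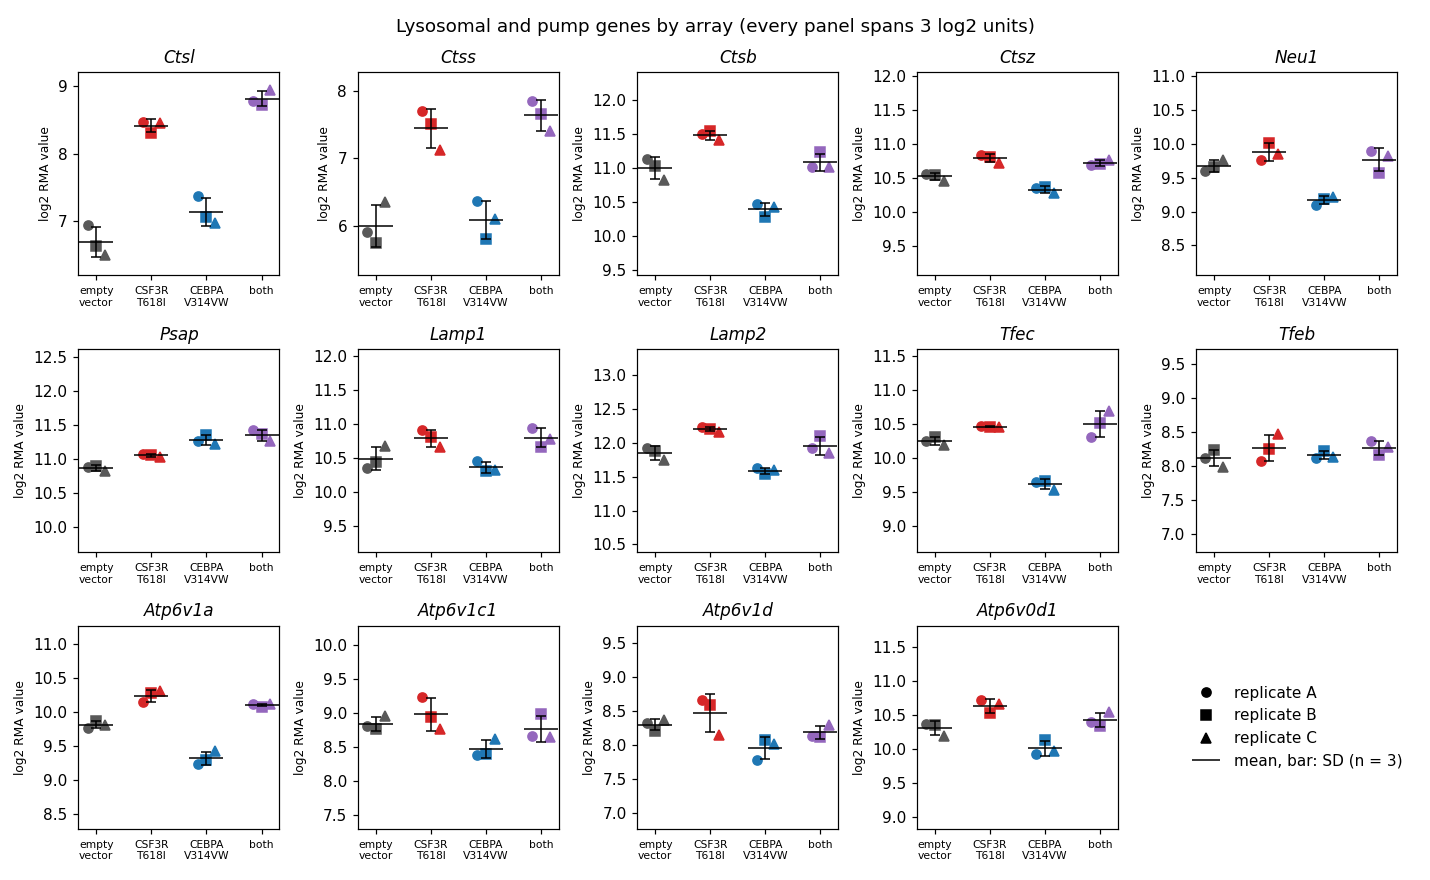
Log2 RMA value of 14 genes on each array, by group (symbols: replicates A, B and C; bars: mean and SD, n = 3; every panel spans the same number of log2 units). Ctsl and Ctss are high in both groups with CSF3R_T618I, whereas Ctsb, Neu1, Tfec and Atp6v1a are lowest with CEBPA_V314VW.

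The second comparison asks what CEBPA_V314VW alone did. Against empty vector, 4 of the 48 genes fell and 1 rose. Tfec, a transcription factor of the TFEB family, Ctsb, Neu1, a sialidase, and Atp6v1a fell, and Psap, the precursor of the saposins that help lipid enzymes, rose. Only 1.02% of all gene probe sets were higher and 0.95% lower. The 5 calls made up 10.4% of the 48 genes, against 2.71% of the symbols above background.

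Tfec was the gene with the clearest fall. It lay at 10.25, 10.31 and 10.19 with empty vector and at 9.65, 9.66 and 9.53 with CEBPA_V314VW, a fall to 0.645 of the control (-0.63 ± 0.11, limma adjusted p = 0.00656). It was at 10.47, 10.46 and 10.45 with CSF3R_T618I and at 10.31, 10.51 and 10.69 with both. The 3 CEBPA_V314VW arrays were below all others, and the double mutant lay at the level of CSF3R_T618I alone. Of the 5 calls against empty vector in this comparison, only that of Tfec was kept under every alternative setting and with each array left out in turn.

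Tfeb itself, the best known regulator of lysosomal genes, did not pass in any comparison. It lay at 8.11, 8.23 and 7.99 with empty vector, at 8.07, 8.24 and 8.46 with CSF3R_T618I, at 8.11, 8.22 and 8.13 with CEBPA_V314VW, and at 8.36, 8.15 and 8.28 with both. The 4 groups overlapped, and the differences between group means ran from 0.00 to 0.15. TFEB is known to be controlled mainly by its place in the cell, which arrays do not measure.

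Atp6v1a lay at 9.76, 9.86 and 9.81 with empty vector and at 10.14, 10.27 and 10.30 with CSF3R_T618I. It lay at 9.23, 9.29 and 9.43 with CEBPA_V314VW and at 10.11, 10.08 and 10.11 with both. None of the CSF3R_T618I or CEBPA_V314VW arrays overlapped the empty vector arrays. It rose by 0.43 ± 0.10 with CSF3R_T618I (limma adjusted p = 0.0166), fell by 0.49 with CEBPA_V314VW (SE 0.10, adjusted p = 0.0149), and was 1.89-fold higher in the first than in the second (0.92 ± 0.10, adjusted p = 2.52e-05). The first 2 calls were lost when some single arrays were left out (highest adjusted p = 0.0814 and 0.0906).

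Neu1 lay at 9.59, 9.66 and 9.76 with empty vector, at 9.76, 10.02 and 9.84 with CSF3R_T618I, at 9.10, 9.19 and 9.21 with CEBPA_V314VW, and at 9.90, 9.58 and 9.82 with both. Its fall with CEBPA_V314VW, 0.51 (SE 0.11, limma adjusted p = 0.0398), was lost under median centring, quantile normalisation and when any array of either group was left out (highest adjusted p = 0.17). The CEBPA_V314VW arrays were nevertheless below all other 9 arrays. Psap went the other way: 10.87, 10.90 and 10.81 with empty vector, 11.07, 11.05 and 11.02 with CSF3R_T618I, 11.26, 11.35 and 11.21 with CEBPA_V314VW, and 11.42, 11.37 and 11.26 with both. It rose with both mutations by 0.49 ± 0.09 (adjusted p = 0.00588), and its rise with CEBPA_V314VW alone (0.41 ± 0.09, adjusted p = 0.0384) did not hold when single arrays were left out.

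**Figure D2:**
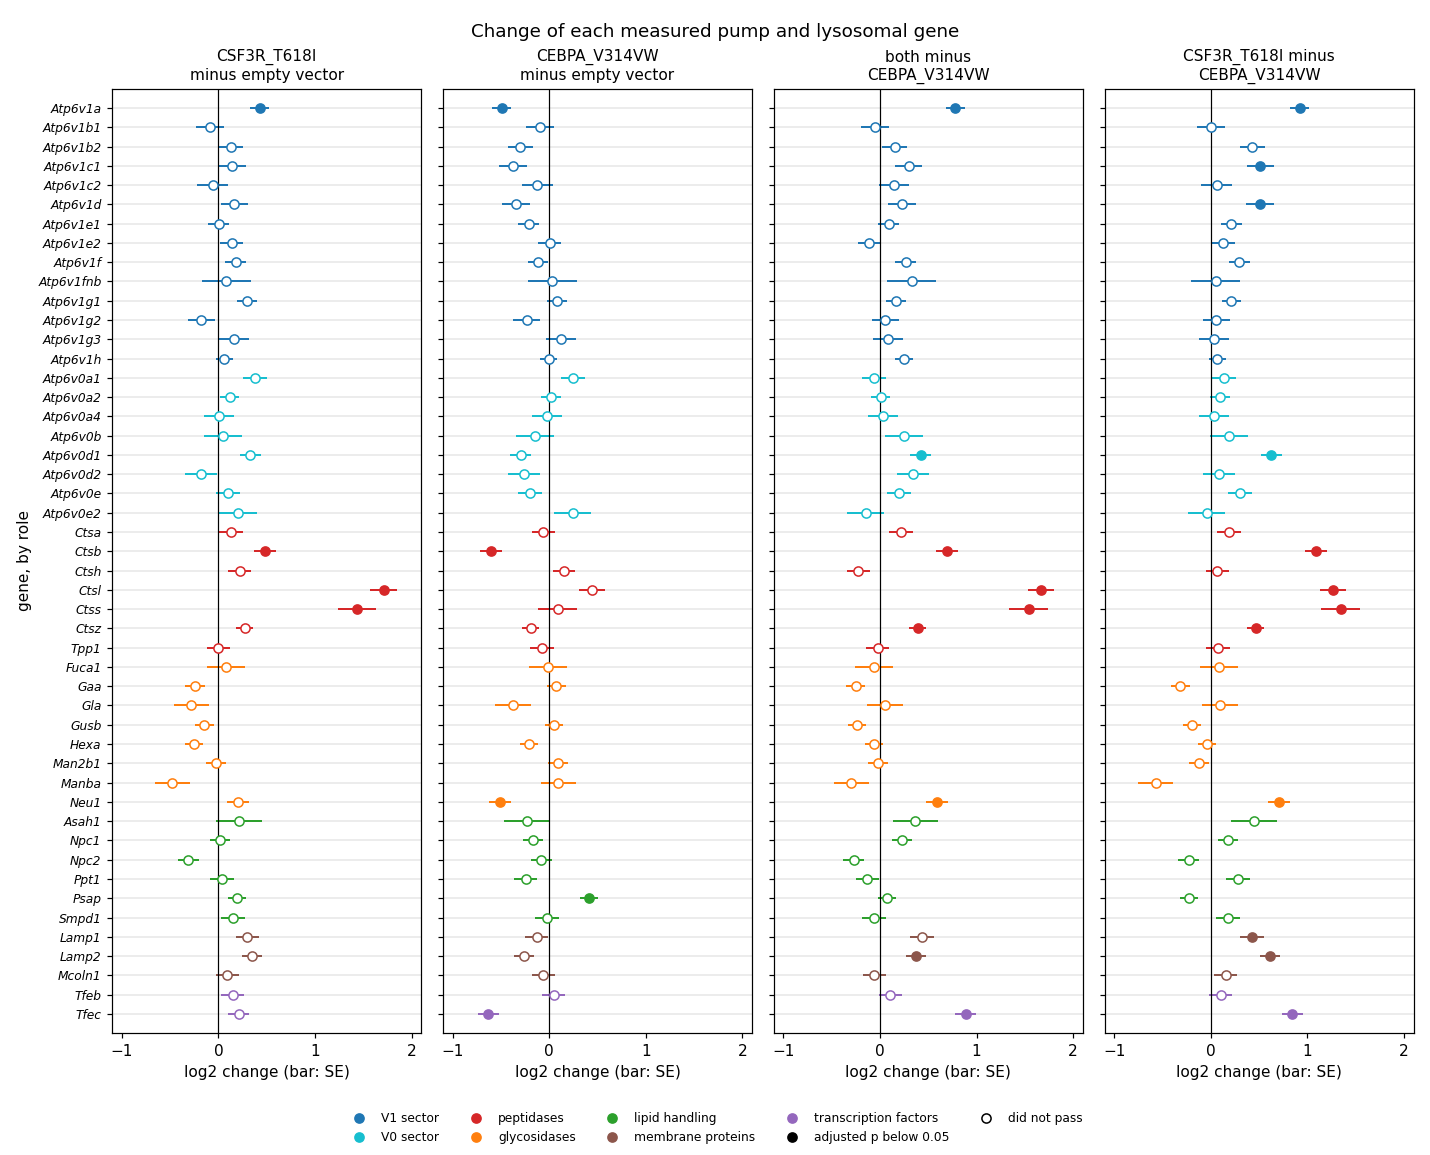
Log2 change of each of the 48 genes in 4 comparisons (x axis; bars: SE), ordered by role and coloured by it; filled points passed at an adjusted p below 0.05 and open points did not. With CSF3R_T618I minus CEBPA_V314VW, 40 of the 48 points lie above 0 and the 12 filled points all lie there.

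The single mutants set directly against each other gave the most calls. With CSF3R_T618I, 12 of the 48 genes were higher than with CEBPA_V314VW and none was lower, where 5.42% of all gene probe sets were higher and 5.27% lower. These calls were 25% of the 48 genes, against 14.7% of the symbols above background. Besides Ctsl (2.41-fold), Ctss (2.54-fold), Ctsb, Atp6v1a, Tfec (1.79-fold) and Neu1 (1.63-fold), they were the cathepsin Ctsz, the membrane proteins Lamp1 and Lamp2, the V0 subunit Atp6v0d1, and the V1 stalk subunits Atp6v1c1 and Atp6v1d. The calls of Atp6v1c1, Atp6v1d and Lamp1 were lost when some single arrays were left out, and the other 9 were not.

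Atp6v0d1 couples the membrane ring to the central stalk. It lay at 10.72, 10.52 and 10.67 with CSF3R_T618I and at 9.93, 10.13 and 9.97 with CEBPA_V314VW, 1.55-fold apart (0.63 ± 0.11, limma adjusted p = 0.00166). The empty vector arrays (10.37, 10.36 and 10.19) and the double mutant arrays (10.40, 10.35 and 10.55) lay between them, apart from 1 double mutant array that overlapped CSF3R_T618I.

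Lamp2, a main glycoprotein of the lysosomal membrane, showed the same order. It lay at 12.23, 12.21 and 12.16 with CSF3R_T618I, at 11.93, 11.89 and 11.74 with empty vector, at 11.92, 12.10 and 11.85 with both, and at 11.63, 11.54 and 11.59 with CEBPA_V314VW. The single mutants were 1.53-fold apart (0.61 ± 0.10, limma adjusted p = 0.00129). Ctsz ran from 10.72 to 10.84 with CSF3R_T618I and from 10.27 to 10.36 with CEBPA_V314VW (0.46 ± 0.09, adjusted p = 0.00432), with the empty vector arrays between, at 10.45 to 10.56, and the double mutant at 10.68 to 10.77.

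In the weaker calls the groups lay close to each other without overlapping. Atp6v1c1 lay at 9.24, 8.94 and 8.77 with CSF3R_T618I and at 8.39, 8.40 and 8.62 with CEBPA_V314VW (0.51 ± 0.14, limma adjusted p = 0.034). Atp6v1d lay at 8.66, 8.59 and 8.14 against 7.77, 8.07 and 8.02 (0.51 ± 0.14, adjusted p = 0.0352). Lamp1 lay at 10.91, 10.81 and 10.65 against 10.46, 10.30 and 10.33 (0.43 ± 0.12, adjusted p = 0.0389). In each of these genes the lowest CSF3R_T618I array was array C, the one that stood apart.

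With both mutations against empty vector, 3 of the 48 genes rose and none fell: Ctsl, Ctss and Psap. The shares over all gene probe sets were 3.16% higher and 2.3% lower, and the 3 calls were 6.25% of the 48 genes, against 7.47% of symbols above background. Ctsb, Atp6v1a, Neu1 and Tfec, lowered with CEBPA_V314VW alone, were at 0.09 ± 0.11, 0.29 ± 0.10, 0.09 ± 0.11 and 0.26 ± 0.11 in this comparison, and none passed. Adding CSF3R_T618I to CEBPA_V314VW raised 9 of the 48 genes and lowered none, beside 3.56% higher and 3.08% lower over all. These were 18.8% of the 48 genes, against 9% of symbols above background. They were Ctsl, Ctss (2.91-fold), Ctsb (0.69 ± 0.11, limma adjusted p = 0.00182), Ctsz, Lamp2, Neu1 (0.60 ± 0.11, adjusted p = 0.00553), Tfec (0.89 ± 0.11, adjusted p = 0.000161), Atp6v1a (0.78 ± 0.10, adjusted p = 0.000161) and Atp6v0d1. The calls of Ctsz, Lamp2 and Atp6v0d1 were lost when some single arrays were left out.

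Adding CEBPA_V314VW to CSF3R_T618I moved none of the 48 genes past the threshold by limma, where 0.748% of all gene probe sets were higher and 0.851% lower. At an unadjusted p below 0.05 there were 6 of the 48, and 2274 of the 22206 gene probe sets. The lowest changes were those of Ppt1, a thioesterase that removes fatty acids from proteins, at -0.41, and of Ctsb, at -0.40 ± 0.11 (adjusted p = 0.144). The highest was that of Ctsl, at 0.40 ± 0.14 (adjusted p = 0.269).

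Whether the effect of CSF3R_T618I differed between cells with and without CEBPA_V314VW was tested by the interaction. None of the 48 genes passed by limma, where 0.113% of all gene probe sets were higher and 0.212% lower. An unadjusted p below 0.05 was found for 6 of the 48, and for 1333 of the 22206 gene probe sets. The smallest p belonged to Tfec, whose change with CSF3R_T618I was 0.21 ± 0.11 without CEBPA_V314VW and 0.89 ± 0.11 with it, a difference of 0.68 (95% interval 0.34 to 1.01, adjusted p = 0.139). Tfec passed under the trended, robust variance prior (adjusted p = 0.0115). For Atp6v1a the difference was 0.35 (95% interval 0.06 to 0.65), for Neu1 0.39 (0.05 to 0.74) and for Ctss 0.10 (-0.51 to 0.72), none past the adjusted threshold. Over the 48 genes 31 differences were positive and 17 negative. The lowest were those of Ctsh and Atp6v0a1, both at -0.45, larger in size than those of Atp6v1a and Neu1. Ctsh lay near background, at 6.17 with empty vector, so little can be read from its value. Atp6v0a1 lay at 10.22.

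The effect of CSF3R_T618I was measured on separate arrays in the 2 backgrounds, against empty vector and against CEBPA_V314VW, so the values can be set side by side. Over the 48 genes they had the same sign in 36 genes (all gene probe sets: 65.8%), with Pearson's r = 0.84 and Spearman's rho = 0.60 across genes (all gene probe sets: r = 0.72). Without the 2 genes farthest from the median, Ctsl and Ctss, r was 0.59. Genes are not independent replicates, and these values are a description.

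**Figure D3:**
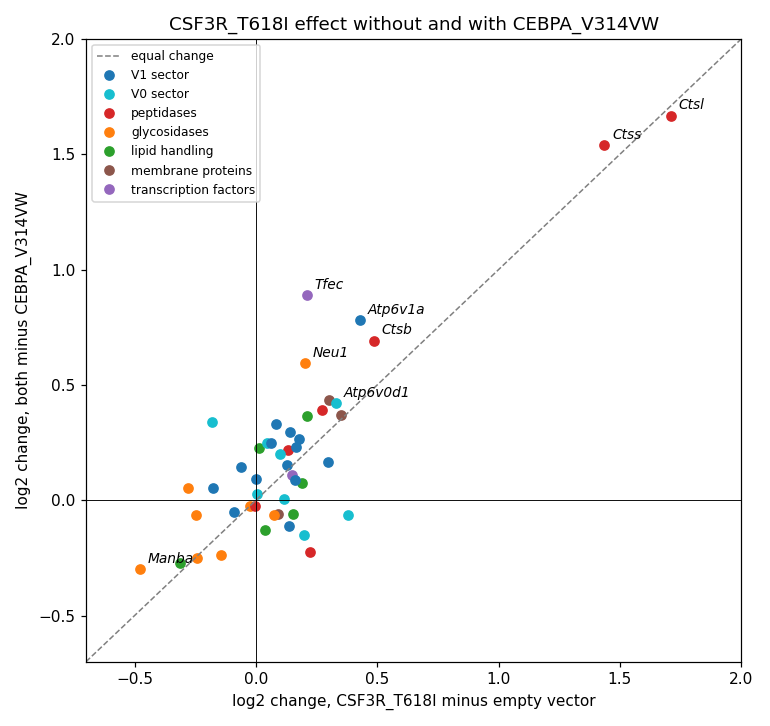
Log2 change of each of the 48 genes with CSF3R_T618I minus empty vector (x axis) and with both minus CEBPA_V314VW (y axis), coloured by role; the dashed line marks equal change. Ctsl and Ctss lie far out near the line. Of the 48 genes 31 lie above it, Tfec, Atp6v1a and Neu1 among them, and 17 below.

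Pump and lysosomal genes were then set against each other as groups. The median changes of the 22 pump and 26 lysosomal genes were small and close: 0.12 and 0.14 with CSF3R_T618I, -0.12 and -0.07 with CEBPA_V314VW, and 0.05 and 0.07 with both, each against empty vector, where all gene probe sets had medians of -0.01, -0.00 and -0.03. Between the single mutants the medians were 0.13 and 0.17. The difference between the pump and lysosomal medians ran from -0.05 to 0.10 over the 7 contrasts, beside an SD of 0.07 over arrays. Direction was more uniform in the pump: 21 of its 22 genes were higher with CSF3R_T618I than with CEBPA_V314VW, against 19 of 26 lysosomal genes and 48.9% of all gene probe sets. Most pump changes were below the threshold: 4 of 22 passed in that comparison, and 8 of 26 lysosomal genes did. The 15 brighter pump genes were all higher there, with a median of 0.21. Of the 7 near background, 6 were higher, with a median of 0.04, and little can be read from these.

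The order of the group means was counted as well. CEBPA_V314VW was the lowest group for 24 of the 48 genes (50%), against 25.0% of all gene probe sets, and CSF3R_T618I was the highest for 23 (47.9%), against 27.5%. Both held for 14 genes (29.2%), against 12.6%. This order was more common in the pump. CEBPA_V314VW was lowest for 14 of 22 pump genes (63.6%) and 10 of 26 lysosomal genes (38.5%). CSF3R_T618I was highest for 13 (59.1%) and 10 (38.5%), and both held for 9 (40.9%) and 5 (19.2%). Within the pump the order lay mainly in the 15 brighter genes. Among them CEBPA_V314VW was lowest for 11 (73.3%) and CSF3R_T618I highest for 12 (80%). Among the 7 near background these counts were 3 (42.9%) and 1 (14.3%). Among the 8 glycosidases CEBPA_V314VW was the highest group for 4 and the lowest for 2. All genes share the same arrays, so these shares are descriptions.

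The enzyme classes were described separately, with no test between them. Among the 7 peptidases the median change with CSF3R_T618I was 0.27, with 6 positive, and among the 8 glycosidases, which trim sugar chains, it was -0.19, with 6 negative and none past the threshold. Without array C of CSF3R_T618I the glycosidase median was -0.12, with 5 negative, and the peptidase median was 0.30. The lowest was that of Manba, a beta-mannosidase, at -0.48 ± 0.18 (limma adjusted p = 0.181). Its levels were 8.62, 8.55 and 8.61 with empty vector and 8.39, 8.38 and 7.56 with CSF3R_T618I, so array C set much of the change, and without that array it was -0.20. The same array was also low for Fuca1, a fucosidase, at 8.56 beside 9.50 and 9.41, and for Asah1, the acid ceramidase, at 9.42 beside 10.43 and 10.39. Without that array the changes of Fuca1 and Asah1 with CSF3R_T618I were 0.37 and 0.54 (adjusted p = 0.0858 and 0.0965), in place of 0.08 and 0.21, and both passed when array C of the double mutant was left out as well (adjusted p = 0.0459 and 0.0454). That last setting was chosen after the data were seen. Array C of the double mutant enters this comparison only through the shared estimate of the spread, so these passes are not taken as rises.

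Gaa, the acid glucosidase that degrades glycogen, lay at 10.84, 10.91 and 10.94 with empty vector and at 10.69, 10.68 and 10.61 with CSF3R_T618I. The groups did not overlap, but the change of -0.24 ± 0.10 did not pass (limma adjusted p = 0.232). Npc2, a cholesterol carrier of the lysosome, was at -0.31 ± 0.11 (adjusted p = 0.131). Among the 6 lipid genes the median was 0.10. The 17 lysosomal genes that passed in no comparison changed by between -0.48 and 0.22 with CSF3R_T618I, and the peptidase Tpp1 was at -0.00 ± 0.12.

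**Figure D4:**
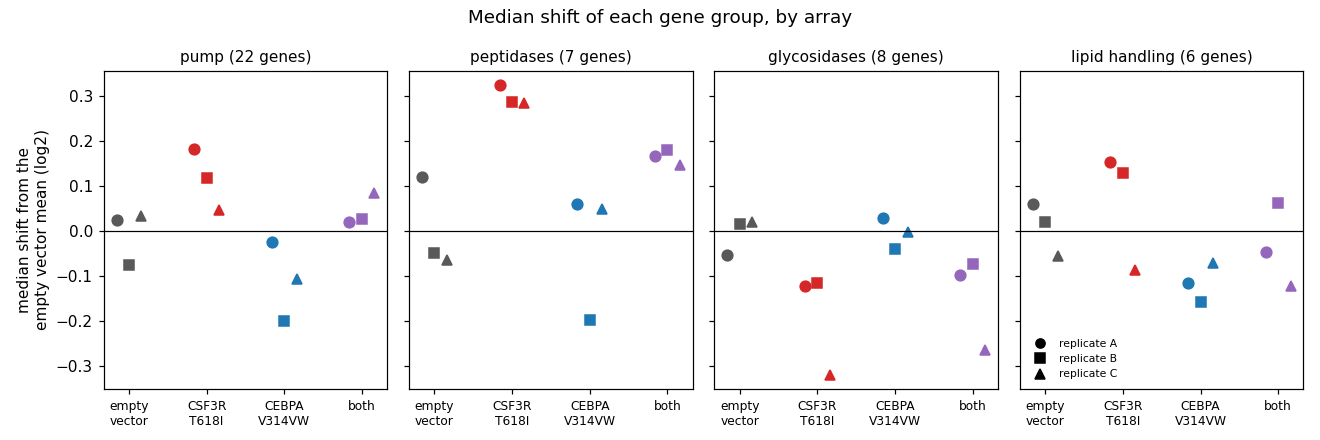
Median over each gene group of the difference from the empty vector mean, on each array (y axis, log2; symbols: replicates A, B and C), for pump genes, peptidases, glycosidases and lipid genes. Peptidases lie at 0.28 to 0.32 on the CSF3R_T618I arrays and glycosidases at -0.32 to -0.11, with array C the lowest for glycosidases.

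Other genes of the pathway were counted from lists. Over all gene probe sets, 6.37% passed in either direction with CSF3R_T618I (8.74% of symbols above background), 1.97% with CEBPA_V314VW (2.71%), and 10.7% between the single mutants (14.7%). Among 12 genes for pump assembly and regulation, 2 rose and 1 fell with CSF3R_T618I (25%, against 3.74% higher and 2.63% lower over all), and none passed with CEBPA_V314VW. Between the single mutants 4 were higher and 1 lower, against 5.42% and 5.27%. Dmxl2, a rabconnectin known to help the V1 and V0 sectors assemble, had a far larger change than any pump subunit. It lay at 6.94, 6.91 and 7.41 with empty vector, at 10.48, 10.42 and 10.17 with CSF3R_T618I, at 7.08, 7.35 and 7.31 with CEBPA_V314VW, and at 10.62, 10.54 and 10.30 with both. The arrays with and without CSF3R_T618I were about 3 log2 units apart: Dmxl2 rose 9.66-fold with CSF3R_T618I (3.27 ± 0.15, limma adjusted p = 4.4e-08) and 9.46-fold when it was added to CEBPA_V314VW (3.24 ± 0.15, adjusted p = 3.58e-08). Its partner Wdr7 rose by 0.48 ± 0.11 (adjusted p = 0.0176), and Ncoa7, a pump-binding protein, fell by 0.51 (SE 0.14, adjusted p = 0.0485); both calls were lost under some alternatives. Tcirg1, the V0 subunit a3, whose symbol fell outside the rule, was 0.46 ± 0.09 higher with CSF3R_T618I than with CEBPA_V314VW (adjusted p = 0.00434).

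Of 25 other lysosomal enzymes and cofactors, none rose and 1 fell with CSF3R_T618I, and none passed with CEBPA_V314VW. The share with CSF3R_T618I, 4%, was below the 6.37% over all gene probe sets. The gene that fell was Gm2a, the activator protein for ganglioside breakdown, at 12.05, 12.07 and 11.96 with empty vector and at 11.18, 11.08 and 10.57 with CSF3R_T618I. This was a fall to 0.471 of the control (-1.09 ± 0.15, limma adjusted p = 0.000547), and it fell again when CSF3R_T618I was added to CEBPA_V314VW (-0.96 ± 0.15, adjusted p = 0.00133). Of 17 other membrane genes, 4 rose and 1 fell with CSF3R_T618I (29.4%, against 6.37% over all), and 1 fell with CEBPA_V314VW (against 0.95% lower over all). Of the 4 rises, that of Laptm4b, which was at or below the background controls in every group, was lost under 12 alternatives and that of Cln3 under 8, and the fall, that of Ctns, was lost under 11. Slc11a1, the metal transporter of phagosomes, rose 1.99-fold (adjusted p = 0.00291), the calcium channel Tpcn2 rose 1.79-fold (adjusted p = 0.00108), and its relative Tpcn1 fell by 0.67 (SE 0.14, adjusted p = 0.0102), a call lost under 1 alternative. Ctns, the cystine transporter, was 2.17-fold higher with CSF3R_T618I than with CEBPA_V314VW (adjusted p = 0.000149).

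Of 9 genes for sorting enzymes to the lysosome, 1 rose and 1 fell with CSF3R_T618I (22.2%, against 6.37% over all), and 1 fell with CEBPA_V314VW (against 0.95% lower over all). Each of these calls was lost under some alternatives: the rise of Sort1 under 7, the replicate block among them, the fall of Gga2 under 9, and the fall of Sort1 with CEBPA_V314VW under 2. Sort1, the receptor sortilin, lay at 10.69, 10.53 and 10.54 with CSF3R_T618I, at 9.80, 9.86 and 10.14 with empty vector, at 9.95, 9.58 and 10.03 with both, and at 9.20, 9.30 and 8.73 with CEBPA_V314VW. The single mutants did not overlap with each other or with the other groups, and were 2.85-fold apart (1.51 ± 0.17, limma adjusted p = 4.17e-05). Of 16 genes of the TFEB family and lysosomal nutrient sensing, 2 rose with CSF3R_T618I and none fell (12.5%, against 3.74% higher and 2.63% lower over all): Tfe3, at 0.54 ± 0.10 (adjusted p = 0.00633), and Fnip2, a folliculin partner, at 0.72 ± 0.12 (adjusted p = 0.00276). Of 15 autophagy genes, 2 rose and none fell (13.3%, against the same shares over all), Map1lc3a (1.91-fold, adjusted p = 0.0152) and Atg9a (0.45 ± 0.12, adjusted p = 0.0371), both lost under some alternatives.

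Markers of progenitors, neutrophils and macrophages were measured in the same arrays. The mean level of 6 neutrophil markers was 8.74 to 9.05 over the empty vector arrays, 10.42 to 10.53 with CSF3R_T618I, 6.78 to 7.40 with CEBPA_V314VW and 9.41 to 9.55 with both, and all 6 were higher with CSF3R_T618I than with CEBPA_V314VW. Against empty vector, 3 of the 6 rose and none fell with CSF3R_T618I, and all 6 fell with CEBPA_V314VW. With both mutations the list was split: Cxcr2, S100a8 and S100a9 rose, and Camp, Ltf and Ngp fell. Over all gene probe sets, 3.74% were higher and 2.63% lower with CSF3R_T618I. The shares were 1.02% and 0.95% with CEBPA_V314VW, and 3.16% and 2.3% with both. Between the single mutants 5.42% were higher with CSF3R_T618I. The monocyte and macrophage list, 12 of 14 measured, ran from 5.84 to 5.94, 6.03 to 6.17, 5.85 to 6.02 and 5.98 to 6.19 in the same order of groups. Its Mrc1, C1qa and Timd4 were at or below background in every group. With CSF3R_T618I against empty vector 10 of the 12 did not pass, 5 were negative and the median change was 0.03. The other 2 passed: Csf1r rose by 1.33 ± 0.22 (limma adjusted p = 0.00234) and Adgre1 by 1.02 ± 0.12 (adjusted p = 0.000105). In bulk samples, a change in the number of cells of a type and a change in RNA per cell cannot be told apart. The part of maturation, or of another cell type, in the results above was not tested.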

How the data were processed

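RNA of 12 samples was measured on GeneChip Clariom S Mouse arrays, from 100 ng of total RNA. The deposited log2 values were made by the authors with RMA in Affymetrix Expression Console, 1 value per probe set; RMA settings and the annotation build are not given in the sources used here. RMA shares a scale across arrays and compresses changes near background. The methods state that sample order was randomised before cDNA synthesis. The study calls the 3 arrays of a group biological replicates; whether they were separate transductions is not stated, so p-values measure the spread between these samples. Their number limits the precision.

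Of 28846 probe sets, 6640 controls were left out and 22206 tested, with no filter on low values; 19572 had 1 gene symbol in the platform annotation (updated through RefSeq, GRCm38.p6). The highest-mean probe set stood for a gene; no gene of the module had more than 1. With limma 3.58.1 in R 4.3.3, all 12 arrays entered a linear model holding 1 mean per group, with eBayes, 6 pairwise contrasts and the interaction, and Benjamini-Hochberg adjustment over all gene probe sets. The script was tested on simulated data. Every-array values are given for genes past the test and 2-fold, for Tfeb and Tfec, and for those with the smallest p; other pathway genes are named only past the test, at most 6 per list and comparison. Values of further genes shown (Manba, Fuca1, Asah1 and Gaa) were chosen after they were seen, as was the split of pump genes by brightness: genes below the 75th percentile of the intron controls in empty vector cells were called near background. The genes, lists and tests were chosen with earlier results of these data known. The alternatives were quantile normalisation, median centring, leaving out dim probe sets, a replicate block, array weights, separate fits, a trended and robust prior, another probe set per gene, and leaving out each array. Leaving out the 2 arrays with the highest background was added after seeing the data.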

Additional observations from a re-analysis of the deposited data

How the results depend on the processing

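Over the 7 contrasts, 33 calls were made on 13 genes. Of these calls 21 were kept under all 21 alternatives. The other 12 were lost under at least 1, each of these also when some single array was left out, and no call changed sign. The alternative with another probe set per gene could not alter these calls, since no gene of the module had more than 1. The number passing with CEBPA_V314VW minus empty vector was 5, and 3 under median centring, the replicate block and the fit of the compared groups alone, and 1 to 5 with single arrays left out. With CSF3R_T618I minus empty vector it was 4, and 11 with array quality weights, 8 with the trended and robust prior, 2 in the fit of the compared groups alone, and 2 to 4 with single arrays left out. For both minus CSF3R_T618I it was 0, and 1 with array weights and 3 with the trended prior; for both minus empty vector 3, and 6 with the trended prior; for the interaction 0, and 1 (Tfec) with the trended prior. For CSF3R_T618I minus CEBPA_V314VW it was 12, and 9 to 15 with single arrays left out, and for both minus CEBPA_V314VW 9, and 6 to 10. Shares over all gene probe sets under these settings are not given here. The cause of these changes was not tested.

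The pump median minus the lysosomal median for both minus CEBPA_V314VW was 0.0965, and 0.0275 without the 2 arrays with the highest background. With single arrays left out it ran from 0.0275 to 0.150 there, from -0.121 to -0.0029 for CEBPA_V314VW minus empty vector, from -0.0654 to 0.0508 for CSF3R_T618I minus CEBPA_V314VW, from -0.0595 to 0.0511 for CSF3R_T618I minus empty vector, from -0.112 to 0.0607 for both minus CSF3R_T618I, from -0.0651 to 0.0814 for both minus empty vector, and from -0.0354 to 0.109 for the interaction. The sign of this small difference thus rests on single arrays in 5 of the 7 contrasts.

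The replicate letters showed no clear pairing of the samples. In deviations from the group means, the 18 same-letter pairs correlated at -0.25 to 0.17 (median -0.01), 4 of them above 0.1. For 3 of 12 arrays the mean correlation with arrays of their own letter was above that with each other letter.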
